A study of Macaca mulatta with 32 samples.

Results

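Circular RNAs (circRNAs) of the rhesus macaque parietal cortex (PC), sampled at the middle sylvian fissure, were compared with those of 4 other neocortical regions. Libraries were chosen by their region label, 4 from PC and 16 from prefrontal (PFC), posterior cingulate (PCC), temporal (TC) and occipital cortex (OC), out of 32 in the series. The hippocampal and cerebellar libraries were not used. In every region the 4 libraries came from the pools 10F, 10M, 20F and 20M, each holding mixed RNA of 2 females or 2 males aged 10 or 20 years. The same 8 healthy animals were thus sampled in all 5 regions, no treatment of the living animals is given, and the pools can show no differences between single animals. The comparison addresses whether PC expresses circRNAs at levels different from those of the rest of the neocortex.

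A circRNA forms when the spliceosome joins the end of an exon back to the start of the same or an upstream exon, a step called back-splicing. The closed molecule has no free ends, resists exonucleases such as RNase R, and accumulates in neurons, where many synaptic genes give rise to circRNAs. The parietal cortex is an association area that combines somatosensory and visual information with attention and movement planning. Each circRNA is named here after its host gene, as in circGABRA4, and located by chromosome, start and end as the deposited table gives them. The genome build is not given in the sources used here, and no genome sequence was at hand, so the junction sequences are not shown.

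The levels below are the deposited TPM values, which in each library are whole numbers of back-splice reads times 1 constant. A value above 0 stands for at least 2 reads, so a circRNA listed at 0 may still have had 1. The PC libraries held 329144 (10F), 430956 (10M), 358898 (20F) and 181780 (20M) back-splice reads, and the other 16 held 58037 to 894932. Reads per library averaged 325194 ± 104729 (SD, n = 4) in PC and 246166 ± 198404 (n = 16) elsewhere, a difference within the spread (exact permutation test, two-sided, p = 0.429, adjusted p = 0.559 over 8 library measures). The number of circRNAs with 2 or more reads was 9004, 5045, 8215 and 7241 in the PC pools 10F, 10M, 20F and 20M. This averaged 7376 in PC and 6650 elsewhere. The deepest PC library, 10M, listed the fewest circRNAs.

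At the depth of the smallest library, 58037 reads, 5324 ± 801 circRNAs were expected in PC and 4878 ± 860 elsewhere (exact p = 0.361, adjusted p = 0.559). Exonic circRNAs took 76.7% ± 0.770 of the back-splice reads in PC and 76.3% ± 0.728 elsewhere. Intronic circRNAs took 6.50% ± 0.355 in PC and 7.20% ± 0.784 elsewhere (exact p = 0.104, adjusted p = 0.307). The 10 most abundant circRNAs held 8.74% ± 0.303 of the reads in PC and 9.78% ± 1.23 elsewhere (exact p = 0.115, adjusted p = 0.307). The joined ends lay a median of 6312 ± 237 nucleotides apart in PC and 5737 ± 663 elsewhere (exact p = 0.112, adjusted p = 0.307). None of the 8 measures differed past the threshold.

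**Figure D1:**
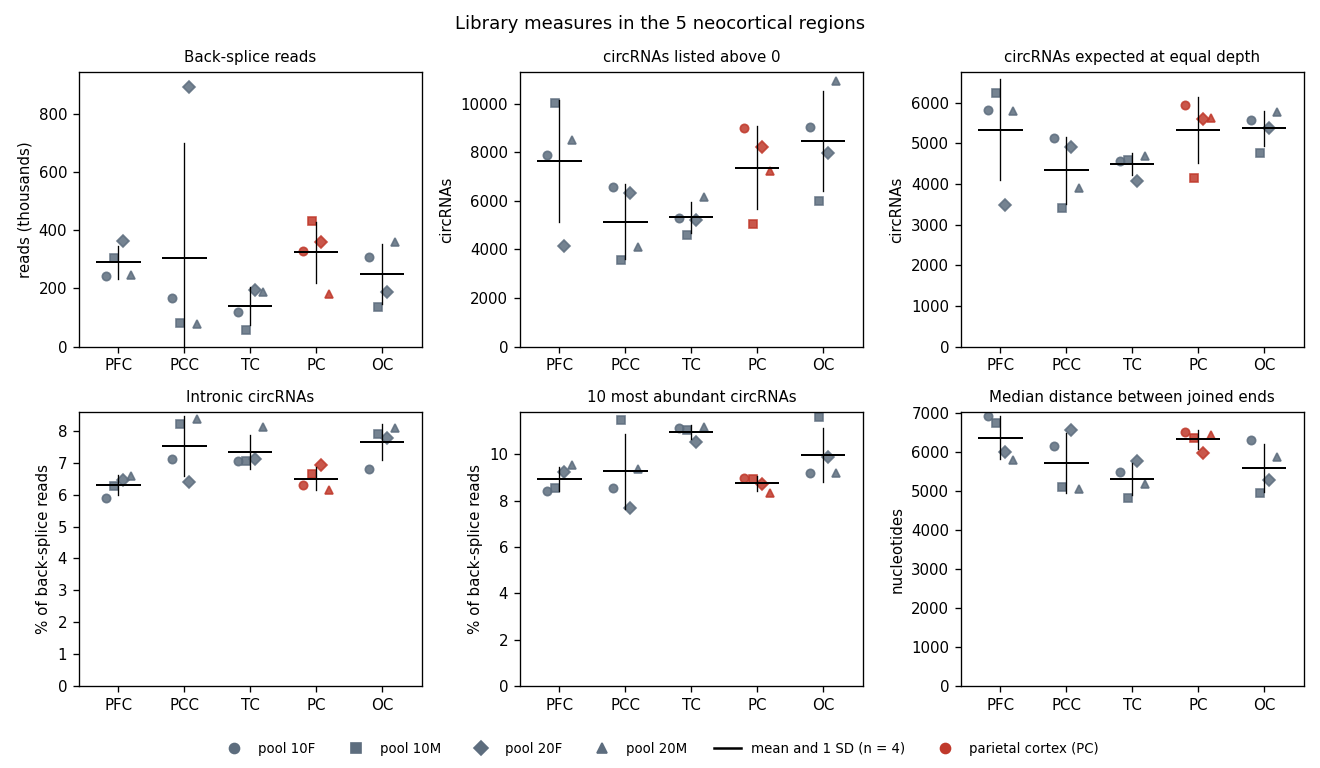
Measures of the 20 neocortical libraries, with the region on the x axis, 1 point per pool and the mean with 1 SD over 4 libraries. The shares plotted, of intronic circRNAs and of the 10 most abundant, are in percent of back-splice reads and distances in nucleotides, and in these panels the PC points lie within the range of the other regions, with PC 10M deepest among the PC libraries and lowest in circRNAs listed.

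Abundant circRNAs were often listed at 0 in single libraries. Among the tested circRNAs whose median TPM in the other 19 libraries would give 50 or more reads at a library's depth, 7.50% (10F), 12.7% (10M), 6.78% (20F) and 8.97% (20M) were at 0 in PC. The other 16 libraries ranged from 5.06% to 15.97%, and PC differed from them by -0.163 percentage points (exact p = 0.923). The libraries with the 3 highest shares, PFC 20F at 13.7%, PCC 20F at 15.97% and PC 10M at 12.7%, are also the 3 of the 20 in which over 95% of reads passed as clean in the study's sample list. A value of 0 in a single library was therefore not read as absence, and results that rest on these 3 libraries are also given without them.

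The study's primer list names 6 circRNAs as enriched in PC, of which 4 are described. It chose them on these same libraries, in which PC was one of 8 regions, so their direction here is not independent evidence. By quantitative RT-PCR, a measurement not contained in the deposited values, the study also reported circGABRA4 and circMERTK as enriched in PC. Of the 4 host genes, CACNA1A encodes the pore-forming subunit of P/Q-type calcium channels and CACNB2 an auxiliary channel subunit, GABRA4 encodes the alpha 4 subunit of the GABA-A receptor, and MERTK encodes a receptor tyrosine kinase that acts in the clearance of dying cells. All 4 circRNAs were annotated as exonic. The study's primers are shown because they define which circle of each gene was meant, forward and then reverse, 5′ to 3′.
circCACNA1A forward: cctgtgccattacatcctgaac
circCACNA1A reverse: tcttcctcctcctccttcttct
circGABRA4 forward: aagttcccgctgctccagt
circGABRA4 reverse: acatcagaaacaggtccaaagc
circCACNB2 forward: cgagggaaatctcaagctaaac
circCACNB2 reverse: ttggcaagcgagatgtcag
circMERTK forward: cttcaacctcacctgtcagg
circMERTK reverse: atacgacccattgtctgaacg

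circGABRA4 (chromosome 5, 42176269-42190792, minus strand) was at 44.7, 62.7, 15.2 and 34.5 TPM in the PC pools 10F, 10M, 20F and 20M. These values rest on 69, 104, 22 and 27 back-splice reads. In the other 16 libraries it ranged from 0 to 60.4 TPM with a median of 7.45, and it was listed at 0 in 5 of them. The groups overlapped, since PCC 10F reached 60.4 and lay above 3 of the 4 PC libraries. The mean was 39.3 ± 19.9 TPM in PC and 12.4 ± 15.5 elsewhere (exact two-sided permutation test, unadjusted p = 0.0118). By limma over all tested circRNAs the log2 difference was 2.20 with a standard error of 0.85 and an adjusted p of 0.577. Without PC 10M the exact p was 0.0557, and without the 3 libraries with over 95% clean reads it was 0.0926.

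circMERTK (chromosome 13, 111359166-111362161, plus strand) was at 10.4, 41.0, 8.29 and 42.1 TPM in the PC pools 10F, 10M, 20F and 20M. Both male pools were high and both female pools low. Elsewhere it ranged from 0 to 31.0 TPM with a median of 2.07, and 8 of 16 libraries were at 0. The mean was 25.5 ± 18.6 TPM in PC and 6.83 ± 9.22 in the other regions (exact two-sided permutation test, unadjusted p = 0.0114), with a limma log2 difference of 2.16 ± 0.83 (standard error) and an adjusted p of 0.577. The exact p was 0.0526 without PC 10M and 0.0537 without PC 20M.

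circCACNB2 (chromosome 9, 18827260-18836161, plus strand) was at 19.4, 46.5, 21.4 and 51.1 TPM in PC, against 0 to 73.1 with a median of 9.35 elsewhere (exact p = 0.0772, limma adjusted p = 0.756). The highest value of all 20 libraries was in TC, where the mean was 37.1 TPM, above the PC mean of 34.6. circCACNA1A (chromosome 19, 12964557-12966424, minus strand) was at 11.02, 13.9, 9.68 and 19.2 TPM in PC, with 0 to 20.6 elsewhere (exact p = 0.319, limma adjusted p = 0.859). Its mean of 13.4 TPM in PC lay beside 13.7 in TC. Thus 2 of these 4, circGABRA4 and circMERTK, had an unadjusted exact p under 0.05, and 0 of the 4 passed limma over all tested circRNAs, where the share called higher was 0.0107%. At an unadjusted limma p under 0.05, circGABRA4, circMERTK and circCACNB2 were higher, beside 5.21% of all tested circRNAs. The study chose them on these libraries, so the share is no fair background for them.

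**Figure D2:**
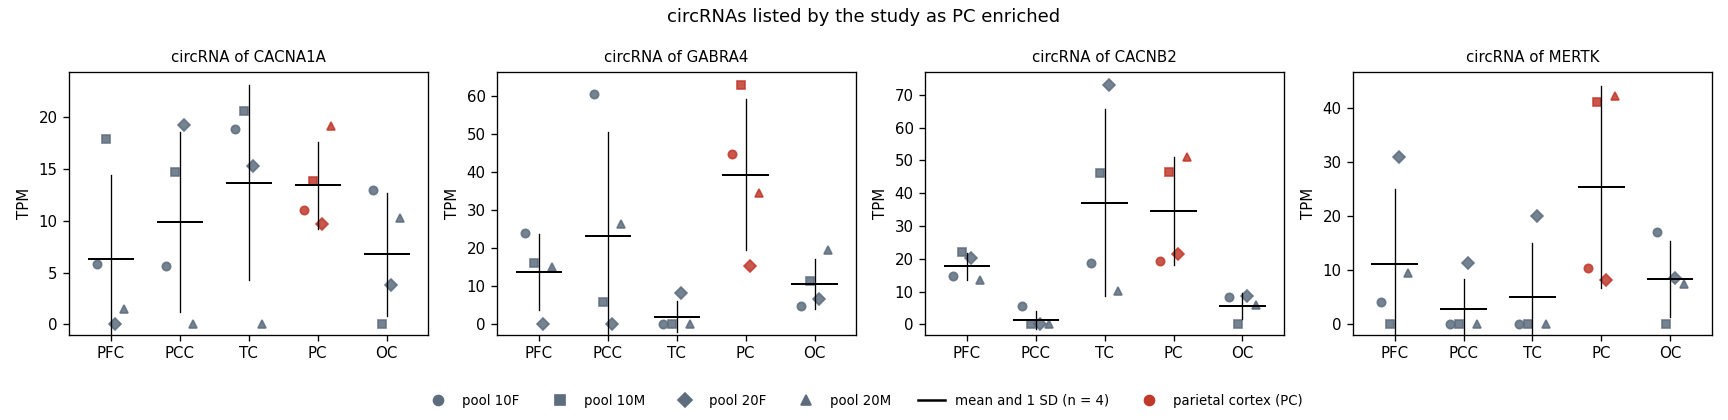
TPM of 4 circRNAs of the primer list, with the region on the x axis, 1 point per pool and the mean with 1 SD over 4 libraries. The PC values of circGABRA4 run from 15.2 to 62.7 and those of circMERTK from 8.29 to 42.1, both overlapping the other regions, while circCACNB2 and circCACNA1A have their highest means in TC.

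Across all circRNAs, 1 was called higher in PC and 0 lower. The limma fit covered 9342 circRNAs with at least 3 reads in at least 4 of the 20 libraries, out of 43868 listed in any of them, and called 0.0107% higher and 0% lower at an adjusted p under 0.05. At an unadjusted p under 0.05, 487 (5.21%) were higher and 109 (1.17%) lower. The median log2 difference over all 9342 was 0.13, and dividing the reads by size factors in place of the deposited constants brought it to 0.03, with 338 higher and 147 lower. With limma voom on the recovered reads the median was -0.44, and 171 were higher and 1181 lower at an unadjusted p under 0.05. Rescaling alone thus left more circRNAs higher than lower, and voom, which also changes the model, did not. Of the 9342 circRNAs, 1638 (17.5%) reached 4 libraries only with PC libraries counted. Among them were 183 of the 487 (37.6%) and 0 of the 109. With 3 reads required in 10 libraries, 151 of 3544 were higher and 81 lower at an unadjusted p under 0.05. With size factors as well, 92 were higher and 106 lower. The part of the filter in the excess was not tested. Fewer cells of a type and less RNA per cell cannot be told apart in such dissected tissue. The 4 libraries of 1 region are separate pools, while the other 16 are the same 4 pools in 4 regions. The limma fit takes all 20 as separate, so its p-values measure a spread that mixes pools, regions and libraries.

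**Figure D3:**
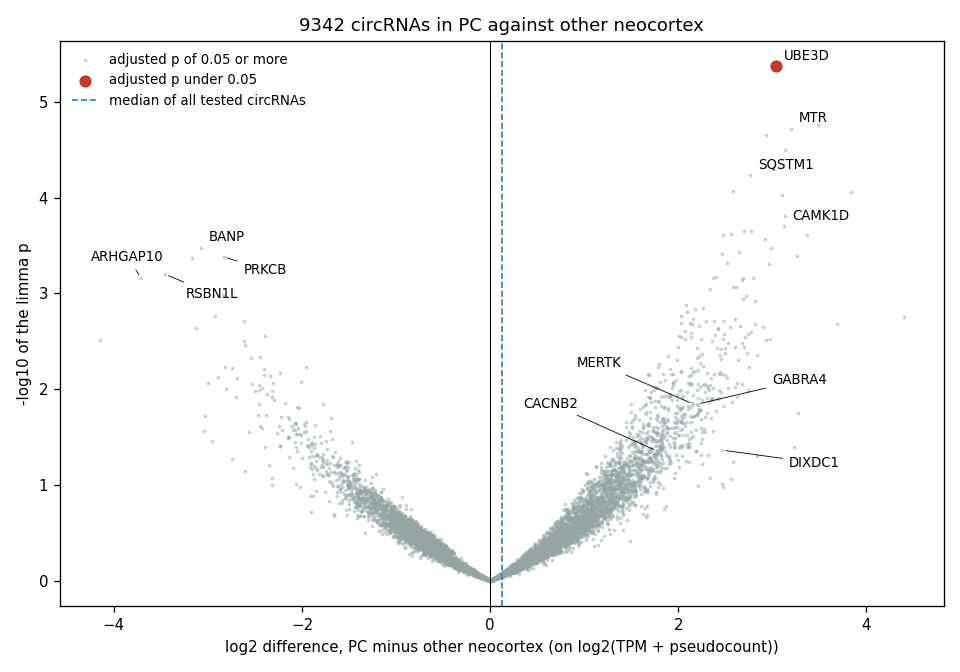
Each of 9342 circRNAs by its log2 difference, PC minus other neocortex on log2(TPM + 1.775), on the x axis and the negative log10 of its limma p on the y axis. The single circRNA past an adjusted p of 0.05, circUBE3D, is the large red point, more points lie high on the right (487 with p under 0.05) than on the left (109), and the dashed line marks the median of 0.13.

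The circRNA called was circUBE3D (chromosome 4, 79048066-79049667, minus strand), an exonic circRNA of an E3 ubiquitin ligase gene. It was at 17.5, 22.9, 9.68 and 10.2 TPM in the PC pools 10F, 10M, 20F and 20M, from 27, 38, 14 and 8 reads. In the other 16 libraries it was listed at 0 in 14, at 1.01 TPM in PFC 20M and at 3.24 TPM in OC 20M. All 4 PC values lay above all 16 others. The mean was 15.1 ± 6.33 TPM in PC and 0.266 ± 0.832 elsewhere, with a limma log2 difference of 3.04 ± 0.55 (standard error) and an adjusted p of 0.0395. It had 3 or more reads in 1 library outside PC, so it entered the test only through the PC libraries in which it was high, and its p-value carries that limit. Its 95 reads in 20 libraries place it below the median tested circRNA, which had 133. circUBE3D held 68.0% of the back-splice reads of UBE3D in PC and 7.92% elsewhere, and the summed circRNAs of the gene had a log2 difference of 2.42 ± 0.82 (limma adjusted p = 0.772).

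The call held in 12 of 38 settings, of which 20 were refits of the same values without 1 library. The direction was the same in all of them. Every PC value lay above every other value, so leaving out libraries could not turn it, and the constant direction is no further evidence. With the pool as a block the adjusted p was 0.0795, and with reads over size factors it was 0.0936. Leaving out 1 library at a time gave adjusted p-values of 0.0218 to 0.0982, with the call lost in 12 of 20 runs: without PC 10F, 10M or 20M, PFC 20F, PCC 10F or 20M, TC 10F, 10M or 20F, or OC 10F, 10M or 20F. Without the 3 libraries with over 95% clean reads the adjusted p of circUBE3D was 0.0751.

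The 9 circRNAs with the next smallest p in the higher direction did not pass, and were singled out after their values were seen. Of these, the shorter circle of NDUFA10, circMTR, circSQSTM1, circSCP2 and an intergenic circle on chromosome 7 had 3 or more reads in 1 to 3 libraries outside PC and so, like circUBE3D, were tested only because they were high in PC. They included 2 circRNAs of NDUFA10, which encodes a subunit of mitochondrial complex I. The longer (chromosome 12, 103893296-103909959, minus strand) was at 29.8, 39.2, 36.6 and 14.1 TPM in PC and at 0 in 12 of 16 other libraries, with a highest value of 23.2 (log2 difference 3.48 ± 0.69, limma adjusted p = 0.0514). The shorter (103923949-103925092) was at 26.6, 26.5, 17.3 and 8.94 TPM and at 0 in 13 of 16 (log2 difference 3.13 ± 0.64, limma adjusted p = 0.0593). Each of these sites was thus seen in all 4 PC pools and in few others. Together with its other circles, however, NDUFA10 gave 106 ± 19.05 TPM in PC and 79.9 ± 53.1 elsewhere (limma adjusted p = 0.848).

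circMTR (chromosome 1, 220220313-220224124, minus strand), from the methionine synthase gene, was at 11.02, 57.9, 15.9 and 10.2 TPM in PC and at 0 in 14 of 16 others, with a highest value of 8.85 (limma adjusted p = 0.0514). circSQSTM1 (chromosome 6, 176515800-176517140, plus strand), from the gene of an autophagy receptor, was at 4.54, 20.5, 21.4 and 12.8 TPM in PC and at 0 in 13 of 16 (limma adjusted p = 0.0899). circSCP2 (chromosome 1, 55831328-55838776, plus strand), from the gene of a sterol carrier protein, was at 5.18, 18.1, 11.1 and 8.94 TPM and at 0 in 15 of 16 (limma adjusted p = 0.0975). These 3 circRNAs were low everywhere, and their PC values stood on 7 to 96 reads per library. circTFDP2, from the gene of an E2F dimerization partner, was at 14.3 to 34.5 TPM in PC and at 0 in 12 of 16, and circATRNL1 was at 20.7 to 126 TPM in PC and at 0 in 10 of 16 (limma adjusted p = 0.144 and 0.0975).

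In 7 of 9342 circRNAs (0.0749%) all 4 PC libraries lay above all 16 others, and in 1 (0.0107%) all 4 lay below. The same counts were 3 above and 0 below for PFC, 3 and 3 for PCC, 16 and 2 for TC, and 9 and 4 for OC. Of the 7, circUBE3D, circMTR, circCCDC9 and the intergenic circle on chromosome 7 entered the test only through the PC libraries, which favours lying above. A circRNA below all others must be above 0 in all 16, so counts above and below are not alike. Besides circUBE3D and circMTR, the 7 included circDIXDC1 (chromosome 14, 110450364-110452109, plus strand), from a gene of Wnt signalling. It was at 292, 413, 451 and 359 TPM in PC, from 281 to 685 reads. Elsewhere its median was 147 and its highest value 279 TPM in PCC 20M, with 0 listed in PCC 20F, TC 20F and TC 20M. The mean was 379 ± 69.1 TPM in PC and 143 ± 95.6 elsewhere, a log2 difference of 2.47 ± 1.17 (limma unadjusted p = 0.0434, adjusted p = 0.753). Among the 7 this was the circRNA with the most reads.

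circCAMK1D (chromosome 9, 13032378-13041508, plus strand), from the gene of a calcium- and calmodulin-dependent kinase, was at 38.9, 29.0, 19.4 and 53.6 TPM in PC and at 0 to 19.03 elsewhere (limma adjusted p = 0.144). circCCDC9 (chromosome 19, 53593748-53595565, plus strand) was at 9.07, 9.65, 12.4 and 10.2 TPM in PC, with 8 to 18 reads, and at 0 in 14 of 16 others with a highest value of 8.54 (limma adjusted p = 0.144), and it too reached the test only through PC. The other 2 were intergenic. The circle at 40439923-40441751 on chromosome 13 was at 16.6 to 52.5 TPM in PC and at 0 to 11.6 elsewhere (limma adjusted p = 0.0975), and that at 18377635-18381768 on chromosome 7 was at 4.84 to 57.3 in PC and at 0 in 15 of 16 others (limma adjusted p = 0.0514). The 1 circRNA below all others, an intergenic circle at 187598186-187628697 on chromosome 2, was at 0 to 19.4 TPM in PC and at 20.6 to 109 elsewhere (limma adjusted p = 0.485).

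Among the 5 circRNAs with the smallest p in the lower direction, none of which passed, each had 2 to 4 PC libraries at 0. circRSBN1L (chromosome 3, 139559132-139566453, minus strand) was at 139, 0, 350 and 0 TPM in the PC pools 10F, 10M, 20F and 20M, and at 101 to 463 in all 16 others. At the median of the others, 238 TPM, PC 10M would have held 394 reads and PC 20M 186, while the 2 PC pools in which it was found lay inside the range of the other regions. The limma log2 difference was -3.45 ± 0.91 (adjusted p = 0.202). circPRKCB (chromosome 20, 22502767-22506160, plus strand), from the gene of protein kinase C beta and listed by the study as enriched in PFC, was at 26.6, 0, 20.0 and 0 TPM in PC and at 8.85 to 110 elsewhere (limma adjusted p = 0.167). Its means were 47.1 TPM in PFC, 52.7 in PCC, 56.9 in TC and 51.5 in OC, against 11.7 in PC.

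circBANP (chromosome 20, 86141502-86143475, plus strand), from the gene of a nuclear protein, was at 0, 0, 31.1 and 21.7 TPM in PC and at 9.78 to 158 elsewhere (limma adjusted p = 0.165). circARHGAP10 (chromosome 5, 140123332-140129905, plus strand), from the gene of a GTPase-activating protein, was at 0, 95.3, 0 and 0 TPM in PC and at 0 to 288 elsewhere (limma adjusted p = 0.202). circZDHHC20 (chromosome 17, 2046004-2058306, minus strand), from a palmitoyltransferase gene, was at 0 in all 4 PC libraries and in 2 of 16 others, whose highest value was 102 TPM (limma adjusted p = 0.167). At the median of the others, 17.2 TPM, the PC libraries would have held 13.5 to 28.5 reads of circZDHHC20. Of these 5 host genes 4 gave other circles in every PC library, and the sums over BANP, PRKCB, ZDHHC20 and ARHGAP10 differed by -0.52, -0.34, -0.15 and -0.29 on the log2 scale, none past the test (limma adjusted p = 0.854, 0.904, 0.968 and 0.918), while RSBN1L itself differed by -2.30 (limma adjusted p = 0.787).

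**Figure D4:**
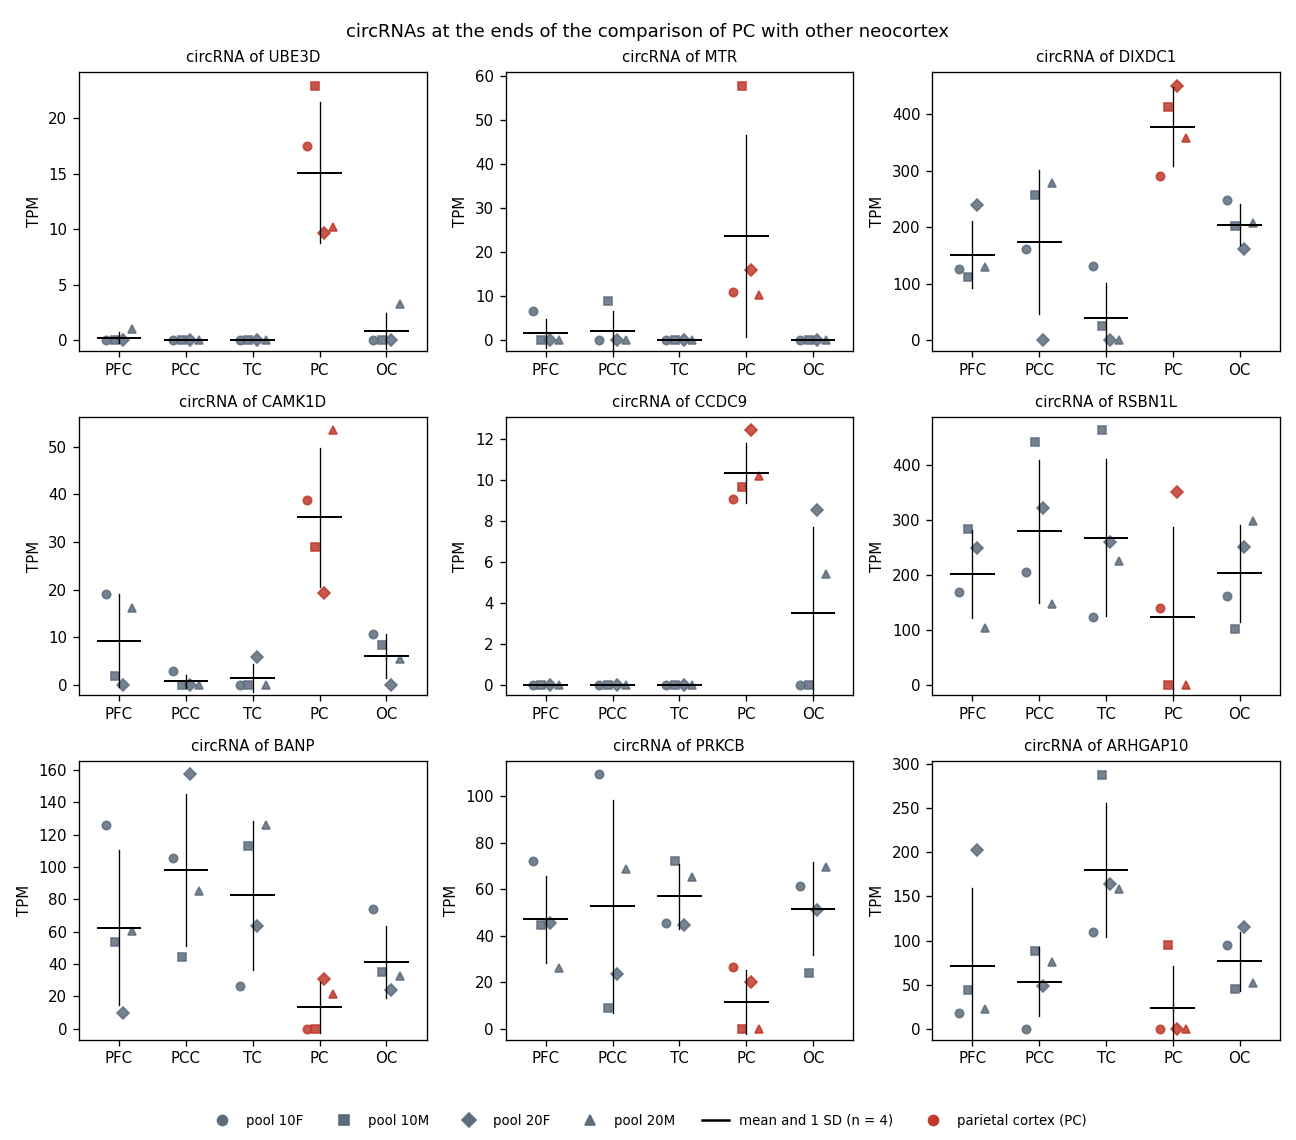
TPM of 9 circRNAs at both ends of the comparison, with the region on the x axis, 1 point per pool and the mean with 1 SD over 4 libraries. The PC points of circUBE3D, circMTR, circDIXDC1, circCAMK1D and circCCDC9 lie above those of all other libraries, while circRSBN1L, circBANP, circPRKCB and circARHGAP10 are listed at 0 in 2 or 3 of the 4 PC libraries.

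The most abundant circRNAs of PC were abundant in the other regions too. circGDAP1L1 (chromosome 10, 20186521-20187867) led with 4118, 5402, 2986 and 4415 TPM in PC, from 3458 to 8955 reads, and was at 1264 to 5979 TPM elsewhere (log2 difference 0.40 ± 0.59, limma adjusted p = 0.910). Its regional means were 4230 TPM in PC, 3761 in PFC, 4182 in PCC and 4250 in TC, and 1666 in OC. circC6ORF142 (chromosome 4, 53822249-53875750) averaged 2211 ± 625 TPM in PC and 2066 ± 1452 elsewhere, and circKIAA0802 (chromosome 18, 5660775-5662824) 1845 ± 638 and 1652 ± 743.

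circUBXN7 (chromosome 2, 189036369-189048246), from the gene of a UBX-domain adaptor protein, was at 1868, 1514, 2190 and 1954 TPM in PC. Elsewhere it averaged 1063 ± 565 TPM and was listed at 0 in 2 libraries (log2 difference 1.85 ± 1.35, limma adjusted p = 0.859). circPHF21A (chromosome 14, 26040605-26054758), from the gene of a chromatin protein, was at 1524, 1942, 1647 and 2063 TPM in PC, and at 598 to 2205 with a median of 1064 elsewhere (log2 difference 0.79 ± 0.55, limma adjusted p = 0.859). Its 4 PC values thus lay above the median of the other regions but inside their range.

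Summed over all circRNAs of a gene, 0 of 2564 host genes were called in PC (0%). At an unadjusted p under 0.05, 98 (3.82%) were higher and 52 (2.03%) lower, and the median log2 difference was 0.29. With reads over size factors the split turned to 57 higher and 86 lower, with a median of 0.10, and limma voom on the recovered reads also called 0, with 136 higher and 90 lower at an unadjusted p under 0.05. The direction of the excess in host genes therefore differed between settings. It also differed between the fit of reads over size factors and voom, whose library sizes came from size factors too. The cause was not tested.

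The host gene with the smallest p was LMNB1, which encodes lamin B1 of the nuclear envelope, at 16.9, 42.2, 28.3 and 40.9 TPM in PC and 0 to 14.9 elsewhere (log2 difference 2.92 ± 0.73, limma adjusted p = 0.626). The PC values of LMNB1 did not overlap the others. This was not singular to LMNB1, since the circRNAs of DIXDC1 summed to 309 to 471 TPM in PC and 0 to 279 elsewhere. The number of host genes without overlap is not given here. Next in the higher direction were IFT88 of intraflagellar transport (49.2 ± 18.8 TPM in PC, 8.56 ± 11.2 elsewhere), the zinc transporter gene SLC30A7 (24.8 ± 12.3, 5.04 ± 11.5), PDE3B (30.5 ± 28.1, 3.52 ± 6.27) and WNK3 (17.6 ± 16.7, 2.61 ± 3.44), with limma adjusted p-values of 0.626 to 0.743. In the lower direction stood ATP6V1C1, a subunit of the vesicular proton pump, at 14.3 TPM in PC 10F and 0 in the other 3 PC libraries, with a median of 29.98 elsewhere (log2 difference -3.20 ± 0.80, limma adjusted p = 0.626). DPYSL2, SEC11A and ZC3H7A followed with log2 differences of -2.59, -2.39 and -2.32, together with PACS1, which was listed at 0 in all 4 PC libraries and at 0 to 49.2 TPM elsewhere and is given no fold (limma adjusted p = 0.743 each).

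Host gene lists of ion channels, receptors, synapse and signalling were read as counts and medians, beside the median of 0.29 over all 2564 host genes. No member of any list passed the test. At an unadjusted p under 0.05 the shares over all host genes were 3.82% higher and 2.03% lower, and those over all circRNAs 5.21% and 1.17%. Of 24 calcium channel genes, 13 gave circRNAs and 6 were tested, with a median log2 difference of 0.37 and 0 at an unadjusted p under 0.05. CACNA1A, whose many circles sum far above the one listed as PC enriched, was at 526, 702, 809 and 183 TPM in PC and at 288 to 1858 elsewhere. Its mean of 555 ± 274 TPM in PC against 1167 ± 507 elsewhere (log2 difference -1.10 ± 0.57, limma adjusted p = 0.787) pointed the opposite way to the single circle, and that circle held 2.10% of the gene's back-splice reads in PC. Among the 24 tested circRNAs of calcium channel genes, 2 were higher and 1 lower at an unadjusted p under 0.05, beside 5.21% and 1.17% of all tested circRNAs. CACNB2 summed to 75.6 ± 26.3 TPM in PC and 47.4 ± 44.1 elsewhere, CACNB4 to 35.6 ± 9.71 and 23.6 ± 16.9, and CACNA1C to 106 ± 41.5 and 76.3 ± 32.4.

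Of 17 GABA receptor genes 6 were tested, with a median of 0.21, and GABRA4 (log2 difference 2.19 ± 0.87) was the 1 with an unadjusted p under 0.05 (limma adjusted p = 0.787), beside 3.82% higher and 2.03% lower of all host genes. Of the 14 tested circRNAs of these genes, 2 were higher and 1 lower at that level. circGABRA4 held 100% of the gene's back-splice reads in PC. GABBR2, of the metabotropic GABA-B receptor, averaged 103 ± 42.5 TPM in PC and 112 ± 65.1 elsewhere.

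Of 25 glutamate receptor genes 11 were tested, with a median of -0.43, and 2 had an unadjusted p under 0.05, both lower in PC, beside 2.03% of all host genes. Of the 21 tested circRNAs of these genes, 1 was higher and 2 lower at that level. GRID1, a delta receptor gene, was at 8.42, 64.6, 85.0 and 34.5 TPM in PC and at 53.8 to 329 elsewhere (log2 difference -1.69 ± 0.57, limma adjusted p = 0.743). GRIK5, a kainate receptor subunit gene, was at 3.89 TPM in PC 10F and at 0 in the other 3 PC libraries, with 0 to 44.8 elsewhere (log2 difference -2.12 ± 0.81, limma adjusted p = 0.787). The metabotropic receptor genes GRM8 and GRM5 gave the highest glutamate receptor sums in PC, at 311 ± 23.5 and 136 ± 31.7 TPM, against 237 ± 122 and 125 ± 78.4 elsewhere.

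The remaining lists lay between medians of -0.48 and 0.34. AKT and MAP kinase signalling had 27 tested genes with a median of 0.25, the presynaptic active zone 17 with 0.34, and potassium and sodium channels 7 with 0.26, each with 0 at an unadjusted p under 0.05. Among their single circRNAs, 3 of 100 for the signalling list were higher and 2 lower at that level, 4 and 3 of 81 for the active zone, and 0 and 1 of 30 for the channels. Postsynaptic scaffold and CaM kinase genes, read as 1 list, had 17 tested with a median of 0.08. The kinase gene CAMK1D was the 1 with an unadjusted p under 0.05, in the higher direction, beside 3.82% of all host genes. Of the 58 tested circRNAs of this list, 3 were higher and 1 lower at that level. CAMK2A, the alpha subunit of the postsynaptic kinase CaMKII, was at 18.2, 30.2, 6.22 and 16.6 TPM in PC and at 8.66 to 184 elsewhere (log2 difference -1.19 ± 0.59, limma adjusted p = 0.787). Cortical layer and area genes had 10 tested with a median of -0.05, with 2 of 38 circRNAs higher and 0 lower at an unadjusted p under 0.05, and CUX2, of upper-layer neurons, averaged 233 ± 19.4 TPM in PC and 258 ± 107 elsewhere. Of the 4 tested regulators of circularization (median -0.48, 1 of 12 circRNAs higher and 0 lower), HNRNPL, a splicing regulator, was at 20.7, 18.1, 47.0 and 20.4 TPM in PC and at 0 to 45.9 elsewhere (log2 difference 2.02 ± 0.89, limma adjusted p = 0.787). QKI, which promotes circularization in other cells, averaged 25.0 ± 25.9 TPM in PC and 47.9 ± 71.0 elsewhere.

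**Figure D5:**
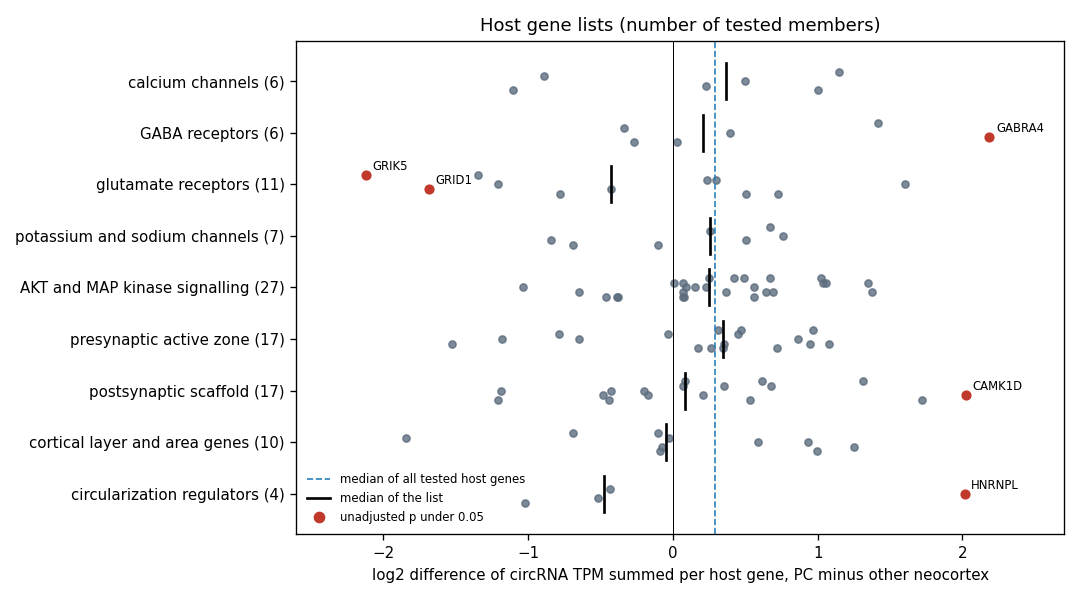
Log2 difference of circRNA TPM summed per host gene, PC minus other neocortex on log2(TPM + 1.775), on the x axis, for the tested genes of 9 lists on the y axis. Each point is a gene, black bars are list medians from -0.48 to 0.37, the dashed line is the median of 0.29 over all 2564 host genes, and red points are the 5 genes with an unadjusted p under 0.05, of which GABRA4, CAMK1D and HNRNPL lie to the right and GRIK5 and GRID1 to the left.

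The labelled tissue could be checked against cell type markers only through their circRNAs. Of 7 excitatory neuron markers 4 gave circRNAs, among them SLC17A7, CAMK2A and RBFOX3, summing to 8.29 to 49.3 TPM in the PC libraries and 12.1 to 184 elsewhere. Of 10 inhibitory neuron markers 5 did, at 15.7 to 105 TPM in PC and 18.6 to 158 elsewhere. Astrocyte markers (5 of 9) summed to 17.3 to 34.5 TPM in PC and 0 to 36.7 elsewhere, oligodendrocyte markers (7 of 13) to 0 to 33.2 and 0 to 38.3, oligodendrocyte precursor markers (4 of 5) to 15.1 to 74.0 and 0 to 70.3, microglia markers (2 of 12) to 0 to 17.9 and 0 to 21.7, and vascular markers (4 of 7) to 8.94 to 19.3 and 0 to 92.6. Among genes typical of other brain structures, 2 of 8 cerebellar markers, among them ZIC1, summed to 0 to 31.9 TPM in PC and 0 to 11.6 elsewhere, and 1 of 6 striatal markers (PDE10A) to 13.6 to 80.8 and 0 to 61.2. The part of cell composition in any difference above was not tested.

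The PC libraries listed 18639 different circRNAs, of which 1400 were found in all 4 pools and carried 58.1% of the back-splice reads, and 12336 were found in 1 pool only. Of the 43868 circRNAs listed in any of the 20 libraries, 6171 were listed in PC and in no other neocortical region. Of the 6171, 5900 were in a single library, 15 in 3 libraries and 0 in all 4. The same count was 6509 for PFC, 3264 for PCC, 3138 for TC and 6911 for OC, so PC lay between the other regions. The circRNAs restricted in this way to 3 or 4 libraries of 1 region numbered 17 in PFC, 1 in PCC, 9 in TC and 53 in OC. Among the 15 of PC, the one with the most reads was circRABEP1 (chromosome 16, 5049020-5091187), with 161 reads and 13.6, 77.8, 0 and 14.1 TPM in the pools 10F, 10M, 20F and 20M. circEVI5 (chromosome 1, 95579195-95581592) followed with 117 reads and 0, 41.6, 20.0 and 24.3 TPM. All 15 fell outside the 9342, which required 4 libraries.

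PC libraries correlated with each other no more closely than with PFC or OC libraries. Over log2 values of the 9342 circRNAs, the 6 pairs of PC libraries had a mean Pearson correlation of 0.468 (0.439 to 0.490), and the 16 pairs of a PC with another library had 0.480 for PFC, 0.474 for OC, 0.440 for PCC and 0.432 for TC. Within OC the mean was 0.554, within PFC 0.494, within TC 0.455 and within PCC 0.424. These correlations run across circRNAs, which are not independent, and share the depth of the libraries.

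Against 1 region at a time, chosen after the values were seen, few circRNAs were called. With limma and the spread of all 20 libraries, PC had 0 circRNAs higher (0%) and 0 lower (0%) than PFC, with 310 and 170 at an unadjusted p under 0.05, and 0 (0%) and 0 (0%) against OC, with 328 and 240. Against PCC it had 1 higher (0.0107%) and 1 lower (0.0107%), and against TC 0 higher (0%) and 1 lower (0.0107%). Higher than in PCC was circDGKB (chromosome 3, 111480686-111504995, plus strand), from the gene of a diacylglycerol kinase, at 59.0, 79.6, 52.5 and 39.6 TPM in PC and 0 in all 4 PCC libraries. In PFC, TC and OC it ranged from 1.62 to 114 TPM, so PCC and not PC stood apart.

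Lower than in PCC was circMCCC1 (chromosome 2, 103655402-103659925, plus strand), at 0 in all 4 PC libraries and at 16.9, 26.5, 16.8 and 26.3 TPM in PCC, and no other region exceeded 1.18. Lower than in TC was circERC2 (chromosome 2, 80379862-80484194, plus strand), from an active zone gene, at 0 in all 4 PC libraries and at 15.7, 61.8, 60.2 and 42.0 TPM in TC, with 0 to 28.1 in PFC, PCC and OC. Among host genes, ZZEF1 was higher in PC than in TC, at 42.8, 41.0, 64.3 and 40.9 TPM against 0 in all 4 TC libraries, and at 4.75 to 91.9 in the other regions. Since these values are at 0 in a whole group, they are listed as such and no fold is given.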

How the data were processed

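RNA of dissected brain regions was pooled from 2 animals per library, depleted of poly(A) and ribosomal RNA and digested with RNase R. Reads were trimmed with Cutadapt and aligned with bwa by the authors, who called circRNAs with CIRI2 at 2 or more junction reads. The authors deposited TPM values per circRNA, 52828 in 32 libraries. Their methods state division by size factors, but the constant of each library is not proportional to median-of-ratios size factors. In all 20 libraries 100% of the values above 0 were whole reads within 0.1 read, taking the smallest value as 2 reads. Intervals from reads would cover counting error only, and none is given. Positions, types and gene IDs were taken over from that table, gene symbols were added from it or from a list of gene names, and primers were read from the study's primer list.

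PC was compared with the other 16 libraries by limma (lmFit, eBayes) on log2(TPM + 1.775), the pseudocount being the median of the smallest values above 0, so that differences of low circRNAs are understated. Tested were circRNAs with at least 3 reads in at least 4 libraries and host genes with at least 3 summed reads in at least 10, over circRNAs with 1 gene ID. The study's filter, an alternative, keeps circRNAs with 30 or more reads in total, or with 3 or more reads in 2 libraries of each of 2 regions, or of 1 region if also in 6 libraries. P-values are two-sided with Benjamini-Hochberg adjustment over all tested. Single values were compared by an exact permutation test over all 4845 choices of 4 of 20 libraries, whose smallest p is 0.000206. The 8 library measures were adjusted together. The p-values of the circRNAs of the primer list are unadjusted, although an adjustment over the list had been planned, because the study chose them on these libraries.

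Named are 4 of the 6 circRNAs of the primer list, the circRNAs past the threshold or else the 5 with the smallest p in each direction, 5 host genes in each direction and the 5 most abundant circRNAs of PC. circRNAs that do not overlap between groups, the next 9 by p, those listed only in PC and those called against 1 region were added after their values were seen. Some items are not reported here. The members and gene lists were chosen with earlier results of these data known. Pools pair the libraries because the same animals were sampled in each region. After removing region means, libraries of the same pool had a mean correlation of 0.0374 (40 pairs) and others -0.0124 (120 pairs).

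Scripts were tested on simulated data. Analyses used Python 3.11.15, NumPy 2.4.6, SciPy 1.17.1, pandas 2.3.3, Matplotlib 3.10.9, R 4.3.3 and limma 3.58.1.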

Additional observations from a re-analysis of the deposited data

Results flagged for a closer look

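In 47 sets of 4 PC values tested for a library far from the other 3, 4 had a gap above Dixon's critical value for 4 samples. The usual rate of about 1 set in 20 does not apply here, since many sets were chosen by their values. Where 3 of 4 values are 0, as for circARHGAP10 and ATP6V1C1, the gap is always the largest possible. In PC 10M, circARHGAP10 was at 95.3 TPM while the other 3 PC libraries were at 0, circMTR was at 57.9 TPM against 10.2 to 15.9, and the intergenic circle at 18377635-18381768 on chromosome 7 was at 57.3 TPM against 4.84 to 11.7. The circRNAs of ATP6V1C1 summed to 14.3 TPM in PC 10F and were at 0 in the other 3. PC 10M is the PC library with the largest share of abundant circRNAs listed at 0, 12.7%, and its part in these values was not tested.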

How the results depend on the processing

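The 1 circRNA called higher in PC became 0 with 3 reads required in 10 libraries, with the 5 region means as equal weights, with a pseudocount of 1 or 0.1775 TPM, with reads over size factors (also with the 10-library filter), with the same total per library and with limma voom on the recovered reads. circUBE3D had 3 or more reads in 4 PC libraries and 1 other. The 10-library filter therefore left it out before any test, and its loss there was fixed in advance. It became 0 without OC or TC and 2 of 9342 without PCC. With no filter it became 24 of 43868, and with the study's filter 10 of 14021. Both looser filters let in circRNAs listed in PC alone, and circRABEP1 and circEVI5 were among those called. It became 5 of 9342 without the 3 libraries with over 95% clean reads. By the exact test at an unadjusted p under 0.01, with no adjustment for the number tested, it became 184. The 0 circRNAs called lower became 3 with voom, 2 without those 3 libraries (2 with size factors too) and 1 by the exact test. Against 1 region alone, 0 circRNAs were higher than in PFC, TC or OC, and 1 was lower than in PCC and in TC.

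With the pool as a replicate block the count of circRNAs higher in PC went from 1 to 0 (0 also with size factors). The block changed no other call of PC against the other 16 libraries. The comparisons with 1 region alone were not refitted with the block. Leaving out 1 library gave 0 to 8 circRNAs higher and 0 to 1 lower. The count higher was 8 without PFC 10M, 7 without PC 20F or PCC 20F, 3 without PFC 10F or PCC 10M, 2 without TC 20M, 1 without PC 10F, PC 10M, PFC 20M or OC 20M, and 0 without any of the other 10. circRSBN1L passed as lower without PC 20F (limma adjusted p = 0.0182) and circARHGAP10 without PC 10M (limma adjusted p = 0.0473).

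Host genes higher numbered 6 of 7535 with no filter, 1 of 2564 without TC and 1 of 2564 against TC alone. By the exact test at an unadjusted p under 0.01, with no adjustment for the number tested, 62 host genes were higher and 1 lower. Of the 4 circRNAs of the primer list, 1 had an exact p under 0.05 without the 3 libraries and 0 to 3 did when 1 library was left out, with 0 without PC 10M, 1 without PC 20M, and 3 without TC 10M or TC 20F, where circCACNB2 joined. The difference in abundant circRNAs listed at 0 ran from -1.40 to 0.571 percentage points when 1 library was left out.

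A sign that turned belonged to a difference near 0. For circKIAA0802 the log2 difference of 0.23 was -0.00193 with size factors, alone or with the block or the 10-library filter, and -0.10 without the 3 libraries as well. The causes were not tested. Comparisons of PC with 1 region, combinations of size factors with another setting, and alternatives for the values listed at 0 were added after seeing the data. Both planned count-model tests were not run, and limma voom on the recovered reads, with library sizes from size factors in place of TMM, was the only count-based fit. A circRNA at 0 in a library may have had 1 read there.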
